A study of Homo sapiens with 2 samples.

Results

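MALAT1 and NEAT1, the long non-coding RNAs (lncRNAs) of nuclear speckles and paraspeckles, were examined in Huh7 cells together with 7 genes for proteins of these bodies. The 9 genes were taken by symbol from a table of 61541 genes. They comprise the 2 lncRNAs, the paraspeckle genes SFPQ, NONO, PSPC1 and RBM14, and the speckle genes SRRM1, SRRM2 and SON. They were chosen by name with their log2 fold changes between these same libraries already known, so their values describe these libraries and are not tested. Huh7 is an established human hepatocellular carcinoma (HCC) cell line. The control library, Huh7-NC, came from cells given a control siRNA, and the other library, Huh7-si, came from cells given an siRNA against BRF2, a subunit of an initiation factor of RNA polymerase III. Time after transfection and which BRF2 siRNA was sequenced were not given in the sources used here. Each condition had 1 library, so no difference has a replicate check and no p-value is given.

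Nuclear speckles and paraspeckles are membraneless bodies within the nucleus. Speckles store splicing factors and are built on the scaffold proteins SON and SRRM2, and MALAT1 is enriched in them without being needed to form them. Paraspeckles are built on the long isoform of NEAT1, which is bound by SFPQ, NONO and other RNA-binding proteins. MALAT1 and the long NEAT1 isoform have no ordinary poly(A) tail: RNase P cuts them just before a tRNA-like RNA, and their new 3′ ends fold into a triple helix. MALAT1 is known for high expression in many tumors, HCC included.

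Both lncRNAs lie on the plus strand of chromosome 11 in GENCODE release 29 (GRCh38). NEAT1 (ENSG00000245532) runs from 65422774 to 65445540 and MALAT1 (ENSG00000251562) from 65497688 to 65506516, with 52147 bases between them. The longest transcript of each is a single exon, of 22743 bases for NEAT1 and 8708 bases for MALAT1, and these are also the lengths in the deposited table. The last 110 bases before the tRNA-like RNA are shown because they form the stable 3′ ends. The MALAT1 stretch is chr11:65506007-65506116 and the NEAT1 stretch is chr11:65445431-65445540, both on the plus strand. Capitals mark the 3 blocks of at least 8 bases, 35 bases in all, that the stretches share in the same order.

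MALAT1 before the tRNA-like RNA: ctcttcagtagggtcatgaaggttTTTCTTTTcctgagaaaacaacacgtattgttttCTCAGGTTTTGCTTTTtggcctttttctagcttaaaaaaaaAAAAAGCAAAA

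NEAT1 before the tRNA-like RNA: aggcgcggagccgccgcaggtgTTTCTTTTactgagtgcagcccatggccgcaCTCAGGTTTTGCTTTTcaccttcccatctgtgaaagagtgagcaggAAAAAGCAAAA

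The first 2 blocks are rich in U in the RNA and the last is rich in A, and these are the kinds of tract that pair in the triple helix. The blocks were searched as exact letters, on the sense strand, in the last 110 bases of the longest transcript of 53820 other genes. TTTCTTTT was present in 1.40% of these windows, AAAAAGCAAAA in 0.0446%, and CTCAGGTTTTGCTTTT in 0 of them. The blocks came from the pair itself, and a longer string is found less often by its length alone. These shares were not set against an expected rate, so they do not show that the ends are particular to the pair. The tRNA-like RNAs that follow are given next, with capitals where their aligned bases are identical (41 bases). The MALAT1 RNA has 57 bases (chr11:65506117-65506173) and the NEAT1 RNA has 58 bases (chr11:65445541-65445598).

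MALAT1 tRNA-like RNA: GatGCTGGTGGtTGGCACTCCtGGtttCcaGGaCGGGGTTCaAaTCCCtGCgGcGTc

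NEAT1 tRNA-like RNA: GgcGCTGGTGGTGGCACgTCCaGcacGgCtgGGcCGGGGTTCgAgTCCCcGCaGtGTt

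Both tRNA-like RNAs have rows of their own in the table, with 0 reads in Huh7-NC against 0 reads in Huh7-si. The MALAT1 one lies within the annotated MALAT1 gene on the same strand, and how reads there were assigned is not known. A count of 0 allows up to 3 reads, or 0.131 CPM in Huh7-NC against 0.136 CPM in Huh7-si, where CPM counts how many of every 1000000 reads on genes belong to a gene. RNAs this short are often lost in RNA-seq libraries, and the size selection was not given in the sources used here.

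The 2 libraries were of like depth, with 22852648 reads on genes in Huh7-NC against 22089016 in Huh7-si. BRF2 was examined first as the target of the siRNA. It had 1281 reads (56.0 CPM) in Huh7-NC against 364 reads (16.5 CPM) in Huh7-si, a difference of -70.6% (log2 fold change -1.77, 95% interval -1.94 to -1.60). Intervals here are exact Clopper-Pearson intervals and cover counting error only. All 8 hepatocyte markers had reads, with 2 above and 6 below a log2 fold change of 0 and a median of -0.08, and they summed to 17272 CPM in Huh7-NC against 18001 CPM in Huh7-si. APOB was higher by 2-fold (20889 and 41399 reads, 1.04) and APOA1, named after its values were seen, was lower (15460 and 8417 reads, -0.83). TMM scaling, edgeR's method that takes most genes as level, took APOB under 2-fold and APOA1 past it. The 8 markers of blood, endothelial and stromal cells summed to 23.5 and 34.3 CPM, with the T cell marker CD3E at 0 in both libraries and the leukocyte marker PTPRC at 5 and 1 reads. The 4 of these with at least 10 reads were all above 0, as were 64.8% of all genes with that many reads. The fibroblast collagen COL1A1 (76 and 229 reads, 1.64, 1.26 to 2.03) and PDGFRB (158 and 218 reads, 0.51, 0.21 to 0.82) had intervals above 0. Those of PECAM1 (60 and 63 reads, 0.12, -0.41 to 0.65) and CD68 (235 and 244 reads, 0.10, -0.16 to 0.37) spanned 0. The part of these markers in the values given next was not tested.

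MALAT1 and NEAT1 were both several-fold higher in Huh7-si. MALAT1 had 1413 reads in Huh7-NC against 10512 reads in Huh7-si, or 61.8 CPM (95% interval 58.6 to 65.1) and 476 CPM (467 to 485). Its level was 7.69-fold higher in Huh7-si (7.28 to 8.14), a log2 fold change of 2.94 (2.86 to 3.03). NEAT1 had 1512 and 6907 reads, or 66.2 CPM (62.9 to 69.6) and 313 CPM (305 to 320). It was 4.73-fold higher in Huh7-si, with a log2 fold change of 2.24 (2.16 to 2.32). The intervals of the 2 libraries lay far apart for both lncRNAs, and the interval of the MALAT1 log2 fold change did not meet that of NEAT1. In a bulk library, a larger share of cells with these RNAs and more of them per cell cannot be told apart. Whether the libraries differed in RNA quality or in the capture of RNAs without an ordinary poly(A) tail was not tested. How RNA was selected was not given in the sources used here.

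**Figure D1:**
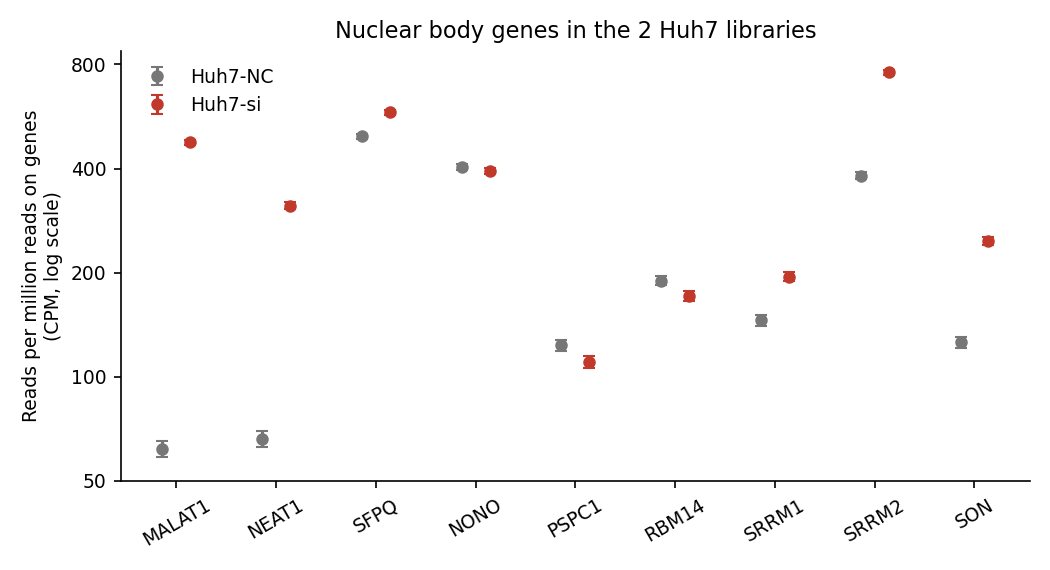
CPM (log scale) of the 9 genes in Huh7-NC (grey) and Huh7-si (red), 1 library each. Bars are exact 95% intervals for counting error only. MALAT1 had 61.8 CPM with the control siRNA and 476 CPM with the BRF2 siRNA, while the values of NONO, PSPC1 and RBM14 lay close together.

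In Huh7-NC, MALAT1 and NEAT1 took 0.00618% (0.00586 to 0.00651) and 0.00662% (0.00629 to 0.00696) of all reads on genes. In Huh7-si they took 0.0476% (0.0467 to 0.0485) and 0.0313% (0.0305 to 0.0320). By reads MALAT1 lay above NEAT1 in Huh7-si and slightly below it in Huh7-NC. The 2 intervals in Huh7-NC overlapped, so the order of the pair there is not established. For each NEAT1 read there were 0.935 MALAT1 reads in Huh7-NC against 1.52 in Huh7-si. Per length, in the deposited TPM values, which scale a gene for transcript length and depth, MALAT1 exceeded NEAT1 in both libraries, by 1.18 and 2.05 times.

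The 7 protein genes differed between the libraries by less than 2-fold. Among the scaffold proteins of speckles, SRRM2 had 8725 reads in Huh7-NC against 16761 in Huh7-si, or 382 CPM (374 to 390) and 759 CPM (747 to 770). Its log2 fold change was 0.99 (0.95 to 1.03). SON had 2878 and 5465 reads, or 126 CPM (121 to 131) and 247 CPM (241 to 254), a log2 fold change of 0.97 (0.91 to 1.04). Both scaffold genes were thus just under the 2-fold mark, and their intervals overlapped each other and reached past it. SRRM1, a splicing coactivator with repeats of serine and arginine, had 3325 and 4300 reads. Its levels were 145 CPM (141 to 151) and 194.7 CPM (189 to 201), a log2 fold change of 0.42 (0.35 to 0.49). On the scale of TPM its log2 fold change was 0.78, beside 0.76 for SRRM2 and 0.91 for SON.

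The log2 fold changes of the 4 paraspeckle genes ran from -0.16 to 0.23. SFPQ, NONO and PSPC1 form a family that pairs up and binds RNA, and SFPQ and NONO are needed for paraspeckles to form. SFPQ had 11319 reads in Huh7-NC against 12841 in Huh7-si, or 495 CPM (486 to 505) and 581 CPM (571 to 591), with a log2 fold change of 0.23 (0.19 to 0.27). NONO had 9260 and 8713 reads, or 405 CPM (397 to 414) and 394 CPM (386 to 403). Its log2 fold change was -0.04 (-0.08 to 0.00), and its 2 CPM intervals overlapped. PSPC1 had 2819 and 2431 reads, or 123 CPM (119 to 128) and 110 CPM (106 to 115), with a log2 fold change of -0.16 (-0.24 to -0.09). RBM14, a coactivator with a prion-like domain that holds paraspeckles together, had 4334 and 3777 reads. Its levels were 189.7 CPM (184.0 to 195.4) and 171 CPM (166 to 177), a log2 fold change of -0.15 (-0.21 to -0.09). PSPC1 and RBM14 were slightly lower in Huh7-si, with fold intervals that overlapped each other. On the TPM scale NONO, PSPC1 and RBM14 turned to small positive log2 fold changes, of 0.07, 0.04 and 0.04.

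**Figure D2:**
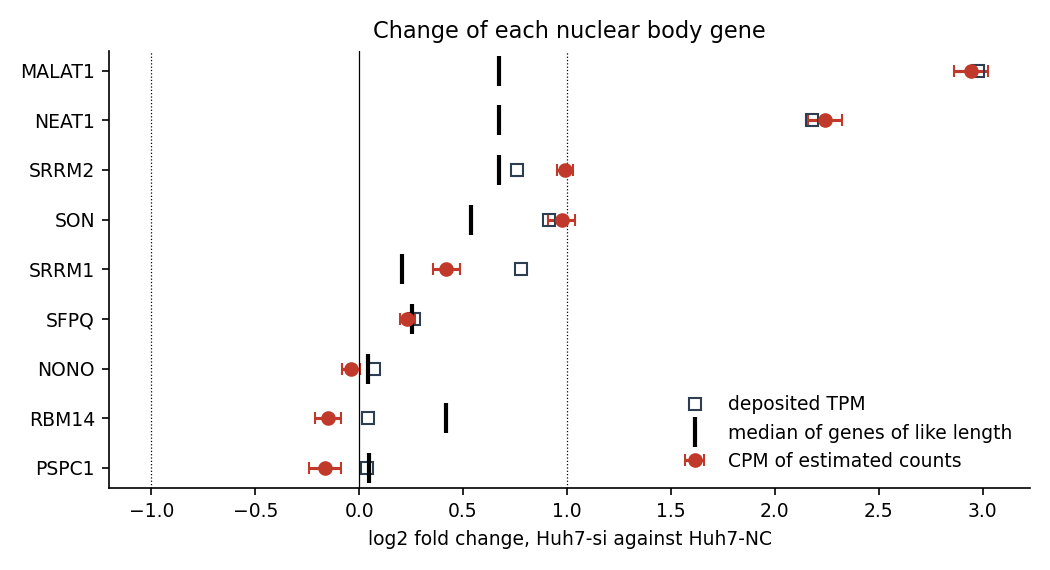
Log2 fold change of each gene, Huh7-si against Huh7-NC, from CPM (red, bars are 95% intervals for counting error only) and from the deposited TPM (squares), with the median of all genes of like length (black ticks) and dotted lines at 2-fold. MALAT1 (2.94) and NEAT1 (2.24) lay past the 2-fold line, SRRM2 (0.99) and SON (0.97) beside it, and the other genes' CPM values below 0.5.

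Levels were also ordered per length by TPM. In Huh7-NC both lncRNAs were the lowest of the 9 genes, with 27.0 TPM for NEAT1 and 31.9 TPM for MALAT1. The highest were SFPQ (292 TPM), SRRM2 (233 TPM) and NONO (223 TPM), and PSPC1, RBM14, SRRM1 and SON fell between, from 72.8 down to 48.1 TPM. In Huh7-si MALAT1 stood at 251 TPM, after SRRM2 (394 TPM) and SFPQ (351 TPM) and just ahead of NONO (234 TPM). NEAT1 stood at 122 TPM, after NONO and ahead of SRRM1 (102 TPM), SON (90.4 TPM), PSPC1 (74.8 TPM) and RBM14 (70.4 TPM). Without a second library the spread of these values is unknown, so the order of near neighbours such as MALAT1 and NONO is not established.

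The TPM level of a gene depends on which transcripts its reads were given to. On 115 genes with 1 annotated transcript, reads per TPM were used to find the mean transcript length behind each TPM value. This length was about 2435 bases for MALAT1 in Huh7-NC against 2700 in Huh7-si, against 8708 in the table. For NEAT1 it was about 3080 and 3640 bases, against 22743. For the single-transcript genes in Huh7-NC, the same estimate came to between 0.921 and 1.06 times the true length at the lower and upper quartile. GENCODE lists 17 transcripts of MALAT1 and 8 of NEAT1, and the lengths behind the TPM values were far under those of the full-length RNAs. The table has 1 value per gene and library, so the short and the long NEAT1 isoform cannot be told apart here. Per kilobase of the table's length, MALAT1 had 7.10 CPM in Huh7-NC against 54.7 CPM in Huh7-si, and NEAT1 had 2.91 and 13.7 CPM. On this scale NEAT1 was the lowest of the 9 genes in both libraries, and MALAT1 in Huh7-si lay beside PSPC1 (54.7 CPM) and below SRRM1 (62.6 CPM), SRRM2 (83.9 CPM), SFPQ (155 CPM) and NONO (229 CPM). The order of the lncRNAs in Huh7-si thus differed between the TPM values and the table's length.

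The shift of all genes was set beside these values. Of 17921 genes with at least 10 reads over both libraries, 15.2% were higher in Huh7-si by at least 2-fold and 1.81% were lower. Of the 9 genes, 2 were higher by at least 2-fold and 0 were lower, a count that the choice of genes had in view. Among the 7454 genes with at least 1000 reads, which all 9 genes reach, 3.38% were higher and 0.0939% were lower. MALAT1 ranked 1 and NEAT1 ranked 7 by log2 fold change among those 7454 genes, SRRM2 ranked 260, SON 281 and SRRM1 1614. SFPQ, NONO, RBM14 and PSPC1 ranked 2593, 4355, 5056 and 5142. The median log2 fold change was 0.21 over the 17921 genes and 0.05 over the 7454. Values above 0 were held by 64.8% of the 17921 genes and 54.5% of the 7454. TMM scaling lowered the median of the 17921 genes by 0.22 and moved their calls from 2723 higher and 325 lower to 1980 and 544, and it gave MALAT1 2.72, NEAT1 2.02, SRRM2 0.77, SON 0.75, SRRM1 0.20, SFPQ 0.01, NONO -0.26, RBM14 -0.37 and PSPC1 -0.39.

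Differences between the libraries went with gene length. In 20 bins of equal gene number, the bin from 707 to 971 bases had a median log2 fold change of -0.17 and the bin of the longest genes one of 0.67, which holds MALAT1, NEAT1 and SRRM2. Above the median of its own bin, MALAT1 stood by 2.27 and NEAT1 by 1.57, while SON and SRRM2 stood by 0.43 and 0.32. SRRM1 stood above by 0.21. SFPQ lay near its bin's median (-0.02), and NONO (-0.08), PSPC1 (-0.21) and RBM14 (-0.57) lay under theirs. On this scale the speckle protein genes lay above the paraspeckle genes, an order that the choice of genes had in view. For RBM14 the bin rested on 5367 bases, against 2828 in its longest GENCODE transcript. The wider lists described below had medians of 0.02 for other speckle genes and -0.10 for other paraspeckle genes relative to like length. Of the other 524 genes with at least 8000 bases and at least 1000 reads, 85 (16.2%) were higher by at least 2-fold, with a median of 0.58.

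**Figure D3:**
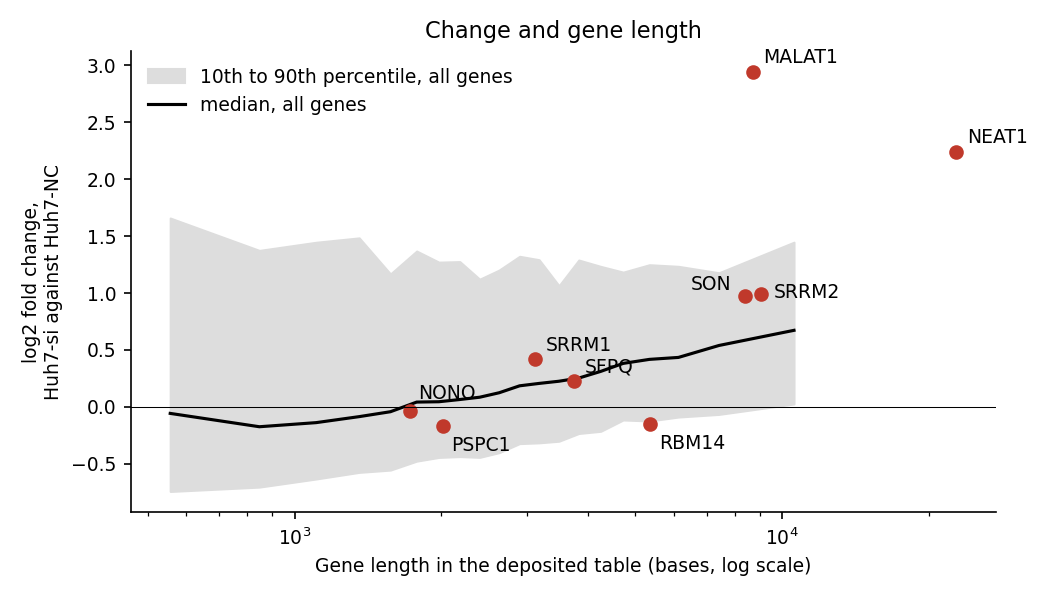
Log2 fold change, Huh7-si against Huh7-NC, by gene length in the deposited table (bases, log scale). The line and the grey band are the median and the 10th to 90th percentile of all genes with at least 10 reads in 20 length bins, and red points are the 9 genes. MALAT1 lay above the band and RBM14 just under it, while NEAT1, longer than the median of the last bin, lay to the right of the band and above its upper edge.

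Gene class was compared next. Of 20 other lincRNA genes with at least 1000 reads, 3 were higher in Huh7-si by at least 2-fold and 0 were lower, and their median log2 fold change was 0.31. Of 221 other genes whose longest transcript has a single exon, as those of MALAT1 and NEAT1 have, 4 (1.81%) were higher by at least 2-fold, and the median was -0.02. Among the 790 genes with at least 10000 reads over both libraries, the genes nearest to both lncRNAs in log2 fold change were FN1 (1.42), IGF2R (1.41) and LAMA5 (1.38). FN1 encodes fibronectin, IGF2R a receptor that carries lysosomal enzymes and LAMA5 a laminin chain. They stood 1.53 to 1.57 below MALAT1 and 0.82 to 0.86 below NEAT1 on the log2 scale. NEAT1 itself had fewer than 10000 reads. Genes with fewer reads lay closer to the pair: at 1000 reads or more, others ranked between MALAT1 (1) and NEAT1 (7).

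Genes around the pair on chromosome 11 showed smaller differences. On the NEAT1 side, FRMD8 lies 9249 bases away and had 1167 reads in Huh7-NC against 1179 in Huh7-si, for a log2 fold change of 0.06 (-0.05 to 0.18). SLC25A45 had 160 and 284 reads (0.88, 0.59 to 1.17) and DPF2 had 2030 and 2103 reads (0.10, 0.01 to 0.19). On the MALAT1 side, LTBP3 had 1735 and 2402 reads (0.52, 0.43 to 0.61), and ZNRD2 had 1537 and 1089 reads (-0.45, -0.56 to -0.34). Each of these neighbours was under 2-fold, and the direction was not the same for all.

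Reads of genes that overlap on opposite strands cannot be told apart without strand, and strandedness was not given in the sources used here. AP000769.2, which is antisense to MALAT1, had 0 reads in both libraries, and so did the microRNA gene MIR612 within NEAT1. SRRM2 overlaps ELOB (2553 and 1554 reads, log2 fold change -0.67) and SRRM2-AS1 (20 and 28 reads) on the other strand. SON overlaps GART (2500 and 2511 reads, 0.06) and DONSON (757 and 555 reads, -0.40) in the same way. RBM14 shares its strand with the readthrough gene RBM14-RBM4, which had 604 reads in Huh7-NC against 1332 in Huh7-si, for a log2 fold change of 1.19 (1.05 to 1.33). With both rows summed, a choice made after their values were seen, RBM14 turned from -0.15 to 0.10 (0.04 to 0.15), so its direction depended on where the shared reads were placed.

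Other proteins of the bodies were taken from written lists and are described by counts and medians beside the all-gene values above. Of 34 other speckle genes, 3 were higher in Huh7-si by at least 2-fold and 0 lower, with 27 above 0 and a median log2 fold change of 0.32. Beside these 27, 54.5% of all genes with at least 1000 reads were above 0. The 3 were CCNL2 (1350 and 3769 reads, 1.53, 1.44 to 1.62), NKTR (1085 and 2735 reads, 1.38, 1.28 to 1.49) and CCNL1 (965 and 2099 reads, 1.17, 1.06 to 1.28). CCNL1 and CCNL2 encode the L-type cyclins, which act with kinases in splicing, and NKTR a cyclophilin with repeats of serine and arginine. All 34 had at least 1000 reads over both libraries, and the share of 3 in 34 lay above the 3.38% of all genes at that depth and below the 15.2% of genes with at least 10 reads. TMM scaling left 2 of the 3 past 2-fold and lowered the list's median to 0.09. With the TPM columns, 7 of the 34 were higher by at least 2-fold. Set against genes of like length, 18 of the 34 lay above their bin's median.

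Other paraspeckle genes showed smaller differences. All 33 rows of this list had at least 10 reads (MATR3 has 2 gene identifiers), and 0 were past 2-fold in either direction. Of these rows, 20 were above 0 and 13 below, beside 64.8% of all genes with at least 10 reads above 0. All rows but that of ZC3H6 had at least 1000 reads, and 54.5% of all genes at that depth were above 0. Their median was 0.14, and with the TPM columns 2 were higher by at least 2-fold. The sign of this median depended on the scaling, at -0.09 with TMM, -0.10 relative to genes of like length and 0.32 with TPM. The CPM values ran from -0.27 for HNRNPA1 (45751 and 36771 reads), a splicing and RNA transport protein with many processed copies in the genome that can share its reads, to 0.93 for ZC3H6 (82 and 151 reads), a zinc finger protein. Of the 33, 10 lay above the median of genes of like length.

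The proteins that cut and bind the ends of both lncRNAs were listed apart, since RNase P and the RNase Z enzyme ELAC2 release the tRNA-like RNA. Of 13 such genes with at least 10 reads, 0 were past 2-fold, 4 were above 0 and 9 below, with a median of -0.18 that turned to 0.08 with TPM. POP7, a subunit of RNase P, was lowest with 2084 and 1404 reads (-0.52, -0.62 to -0.42). METTL16, a methyltransferase that binds the MALAT1 triple helix, was highest with 982 and 1329 reads (0.49, 0.37 to 0.61). RPPH1, the RNA subunit of RNase P and a transcript of RNA polymerase III, had 0 and 6 reads.

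**Figure D4:**
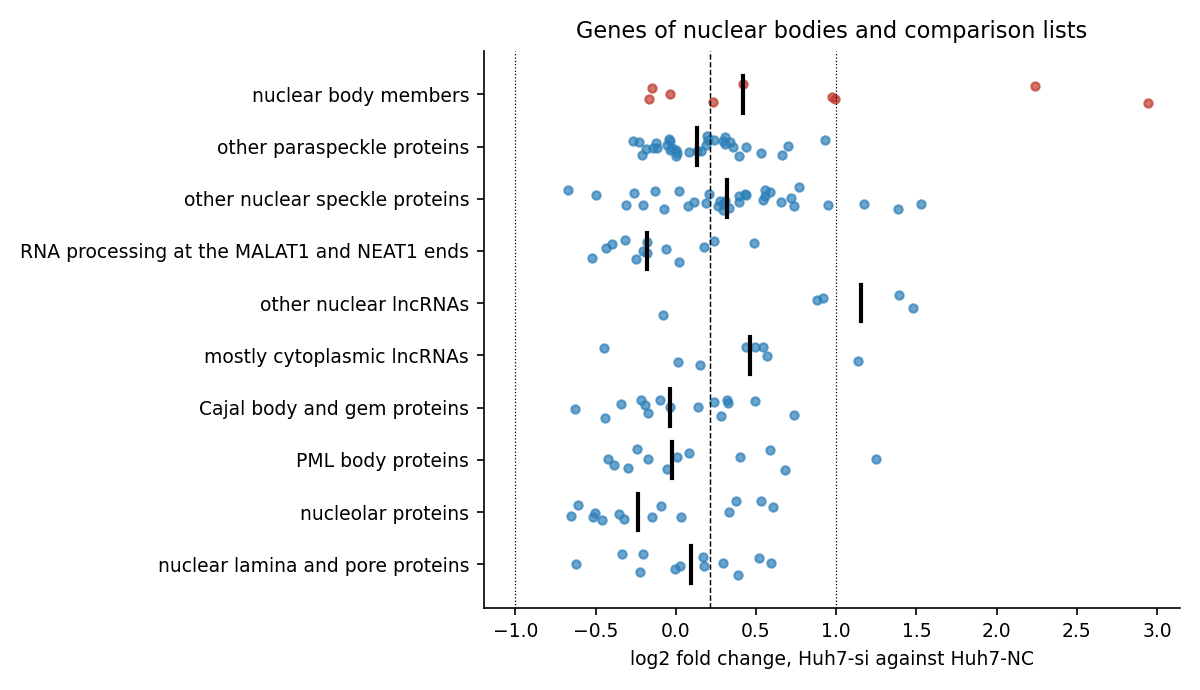
Log2 fold change, Huh7-si against Huh7-NC, of each gene with at least 10 reads over both libraries, by list (red, the 9 genes; blue, other lists; vertical scatter within a list has no meaning). Black bars are list medians, the dashed line is the median of 17921 genes (0.21) and dotted lines mark 2-fold. MIAT, at 0 in Huh7-NC, counts in its list's median of 1.16 and has no point.

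The remaining lists placed MALAT1 and NEAT1 among other RNAs and bodies. Of 6 other nuclear lncRNAs with at least 10 reads, 3 were higher by at least 2-fold, beside the 15.2% of all genes at that depth, with a median of 1.16. The count rested on few reads, since a pseudocount of 1 CPM left 1 of them past 2-fold with a median of 0.71, and none of the 3 reached 1000 reads. KCNQ1OT1, an imprinted nuclear RNA, had 108 and 291 reads (1.48, 1.16 to 1.81). The others, named after their values were seen, were PVT1 with 24.1 and 61 reads and MIAT with 0 and 10.2 reads, whose log2 fold change has a lower 95% limit of 1.21. MIAT passed the filter of 10 reads through Huh7-si alone, so it could only be called higher. Its place in the count and in the median carries no weight. TUG1, also named after its values were seen, had 2632 and 4813 reads (0.92). Of 8 lncRNAs that are mostly cytoplasmic, 1 was higher by 2-fold, beside the 15.2% of all genes, with a median of 0.46. It was H19 with 6.63 and 14.1 reads (1.13, -0.36 to 2.60), named after its values were seen, and its interval spanned 0. TMM scaling and the TPM columns each left 0 past 2-fold in this list. In that list DANCR (5387 and 3811 reads, -0.45) was lowest among genes with at least 100 reads and NORAD (4610 and 6598 reads, 0.57) highest.

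Among other nuclear compartments, the 14 nucleolar genes had a median of -0.23 with 0 past 2-fold. NCL, the nucleolar RNA-binding protein nucleolin, had 33161 and 20339 reads (-0.66), and MKI67, which coats mitotic chromosomes, had 3039 and 4462 reads (0.60). The 15 genes of Cajal bodies and gems had a median of -0.04 and 0 past 2-fold, from GEMIN6 of the SMN complex (366 and 228 reads, -0.63) to ICE1 of the little elongation complex (590 and 950 reads, 0.74). The 12 genes of PML bodies had a median of -0.02, and 1 of them was higher by at least 2-fold, the chromatin remodeler ATRX (620 and 1425 reads, 1.25). Relative to genes of like length ATRX stood at 0.58, the median of the PML list was -0.31 and 0 were past 2-fold. The 12 genes of the nuclear lamina and pores had a median of 0.10 and 0 past 2-fold, from BANF1 (3211 and 2018 reads, -0.62), a DNA-binding protein of the nuclear envelope, to NUP153 (1556 and 2273 reads, 0.60), a pore protein. The signs of these medians depended on the scaling: with TPM the nucleolar median was 0.04, that of Cajal bodies 0.16 and that of PML bodies 0.10, and with TMM that of the lamina and pores was -0.13.

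The study proposes that MALAT1 raises BRF2 by taking up hsa-miR-1-3p, a microRNA of muscle that binds targets by its seed (bases 2 to 8). Its evidence included lower BRF2 mRNA and protein after MALAT1 knockdown, reporter assays, microRNA mimics and a microRNA inhibitor. It also reported that the microRNA rose after this knockdown and was negatively correlated with MALAT1 and BRF2 in tissue of patients. The mature RNA (RefSeq, GRCh38, the copy at chr20:62554351-62554372, plus strand) and the 7-base seed matches in the longest MALAT1 transcript are shown with seed and matches in capitals. The sites are chr11:65504670-65504698 and chr11:65504891-65504919, on the plus strand.

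hsa-miR-1-3p: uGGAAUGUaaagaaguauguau

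MALAT1 upstream site: aatcagtgacaagaaACATTCCaaacaag

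MALAT1 downstream site: ctttaaataaaccaaACATTCCattttaa

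The match ACATTCC was searched on the sense strand of the longest transcript of each of the 9 genes, and BRF2 was not searched. MALAT1 held 2 matches, against a mean of 0.604 in 756 transcripts within 10% of its length, 44.4% of which held at least 1. NEAT1 held 5, against a mean of 1.83 in 18 transcripts of like length. Per kilobase the pair were alike, with 0.230 matches in MALAT1 and 0.220 in NEAT1. SRRM1 held 1 match, which is 0.249 per kilobase and so no lower than the pair, and the other 6 genes held 0. The transcripts of like length were not matched for base composition. These counts describe the letters alone, since microRNA levels and binding were not measured in these libraries.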

How the data were processed

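RNA-seq was analyzed from 2 libraries of Huh7 cells, 1 given a control siRNA (Huh7-NC) and 1 an siRNA against BRF2 (Huh7-si). The authors deposited 1 table of 61541 genes holding, for each library, unscaled estimated counts and TPM values. For 44.6% of the genes with reads an estimated count is fractional, and counts were rounded for intervals. The deposited ratio (fold), log2, p-value and adjusted p-value columns hold the authors' own comparison and were not used. The submitters' processing notes name Bowtie2 2.0.6, TopHat2 2.0.12 and GRCh37. The counting tool, annotation, strandedness and RNA selection were not given in the sources used here. These choices set how reads of overlapping genes and isoforms were shared out.

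The 9 genes and the gene lists were chosen with earlier results of these data known. Fold changes are ratios of CPM with exact 95% Clopper-Pearson intervals, which cover counting error only. A gene was counted as higher or lower at a point ratio of at least 2-fold, and lists were described over genes with at least 10 reads over both libraries. From each list, the text names every gene with at least 100 reads past 2-fold, or else the largest and smallest log2 fold changes. It also names genes that overlap one of the 9, the 3 nearest genes on each side of the MALAT1 and NEAT1 pair and, at 10000 reads or more, the 3 genes nearest to each lncRNA in log2 fold change. A further gene that the rule names is not reported here. TALAM1 and CCAT1 of the nuclear lncRNA list had no matching row, and MEG3 and MEG8 had fewer than 10 reads. Of the gene identifiers, 94.8% matched GENCODE release 29 (GRCh38), from which positions and transcript sequences were taken, which is another build than that of the notes. Interval code was tested on simulated data. Alternatives were the scaling (edgeR 4.0.16, DESeq2 1.42.0), TPM, pseudocounts, the filter on low counts, the fold threshold and a correction for gene length. Python 3.11.15 with SciPy 1.17.1 and R 4.3.3 were used.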

Additional observations from a re-analysis of the deposited data

How the results depend on the processing

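No replicate could be left out and no test was run, since each condition had 1 library. No paired analysis was possible because the result comes from no test and each group holds 1 sample. MALAT1 and NEAT1 stayed higher in Huh7-si by at least 2-fold under every scaling, pseudocount and length correction tried, with log2 fold changes from 2.27 to 2.98 for MALAT1 and from 1.57 to 2.24 for NEAT1. A fold threshold of 1.5 gave 4 of the 9 genes as higher in place of 2, SRRM2 and SON being added. At that threshold 3 other paraspeckle genes and 9 other speckle genes were higher and 1 speckle gene lower, and with the TPM columns 2 and 7 were higher at 2-fold. SFPQ went from 0.23 to -0.02 relative to genes of like length. Without the 100 genes with most reads in the total, MALAT1 took 0.00788% of the Huh7-NC reads and 0.0595% of the Huh7-si reads, and NEAT1 took 0.00842% and 0.0391%. Of the TPM total, MALAT1 took 0.00320% and 0.0252%, and NEAT1 took 0.00271% and 0.0123%. Of all genes with at least 1 read, 28.5% were higher and 8.79% lower by 2-fold, and of genes with at least 1000 reads 3.38% and 0.0939%. The causes of these moves were not tested. At this depth counting error is small for the 9 genes, while the spread between libraries of a condition is unknown.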
